A study of Mus musculus with 8 samples.

Results

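Transcripts for the production, export, sensing and breakdown of sphingosine 1-phosphate were measured in lymphatic and blood vascular endothelial cells sorted from the normal mouse colon. The 8 genes were given as a list by name, and every probe set annotated with exactly 1 of these symbols was taken, which gave 16 probe sets of 8 genes, of the 45037 probe sets that are no controls and the 18193 genes they name. A probe set is a group of short probes on the array that is summarised into 1 signal for 1 transcript. Lymphatic endothelial cells (LEC), the lining of the vessels that return tissue fluid to the blood, were measured on 4 arrays, and blood vascular endothelial cells (BEC), which line arteries, capillaries and veins, on 4 arrays. LEC and BEC came from the same 4 healthy, untreated C57BL/6J mice aged 8 weeks, of which 3 were female and 1, mouse 4, was male. The cells were separated by flow cytometry after staining for CD31, podoplanin and CD45.2, and the pairs were selected by the submitters for the quality of the RNA and cDNA. The sources used here give no gates, and podoplanin (Pdpn) and CD31 (Pecam1), as sort antigens, are no independent check of the labels. Before labelling, the RNA went through a linear isothermal amplification. Values are log2 signals, and differences are LEC minus BEC.

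Sphingosine 1-phosphate is a lipid signal made inside cells from sphingosine by the sphingosine kinases SPHK1 and SPHK2. Endothelial cells release it through the transporter SPNS2, and it acts on G protein-coupled receptors at the cell surface, of which S1PR1 is known for holding blood vessel junctions closed and for guiding lymphocytes out of lymphoid organs. Lymphatic endothelium is a known source of the sphingosine 1-phosphate of lymph. The lyase SGPL1 cleaves it irreversibly, while the phosphatase SGPP1 in the endoplasmic reticulum and the surface phosphatase PLPP3 return it to sphingosine.

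The sorted cells carried the markers of their labels. All 6 lymphatic markers measured were higher in LEC and 7 of 8 blood vascular markers were lower in LEC (limma, adjusted p under 0.05), for example Prox1 (mean log2 signal 11.46 in LEC, against 3.75 in BEC) and Vwf (3.44 in LEC, against 10.91 in BEC). The 7 pan-endothelial markers were above background on all arrays. All 7 had a difference below 0, from -1.28 to -0.35 with a median of -0.72. Of them 1, Cdh5, was called (lower in LEC, difference -1.18, limma, adjusted p = 0.0298). LEC replicate 1 stood somewhat apart, with a median Spearman correlation of 0.541 with the other LEC arrays, against 0.697 to 0.702 for those arrays. Leaving it out gave no call among the probe sets of the 8 genes, with differences of -0.99 for S1pr1, 2.51 for Sphk1 and 0.23 for Spns2. Background was taken for each array as the 95th percentile of 27 bacterial control probe sets and lay between 3.43 and 4.88. It was 4.88, 4.32, 3.83 and 4.01 on LEC replicates 1 to 4, against 4.52, 3.43, 3.43 and 3.43 on BEC replicates 1 to 4. Counts of arrays above background therefore rest on a higher level in LEC of each mouse. Raising values to background gives a difference of 0.56 where no array is above it, as at S1pr3 1437173_at.

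None of the sphingosine 1-phosphate genes passed the test between LEC and BEC. Of the 16 probe sets, 12 (7 genes) passed the filter on low values and were fitted, and 0 of the 12 were called at an adjusted p under 0.05 by limma, where 3.31% of all 28840 fitted probe sets were called. At an unadjusted p under 0.05 the count was 1 of 12, where 13.1% of all fitted probe sets passed. The median difference over the 12 was 0.20 and their range -2.21 to 2.36, beside a median of 0.11 over all fitted probe sets. In sorted cell pools, fewer cells that make a transcript and less transcript per cell cannot be told apart.

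**Figure D1:**
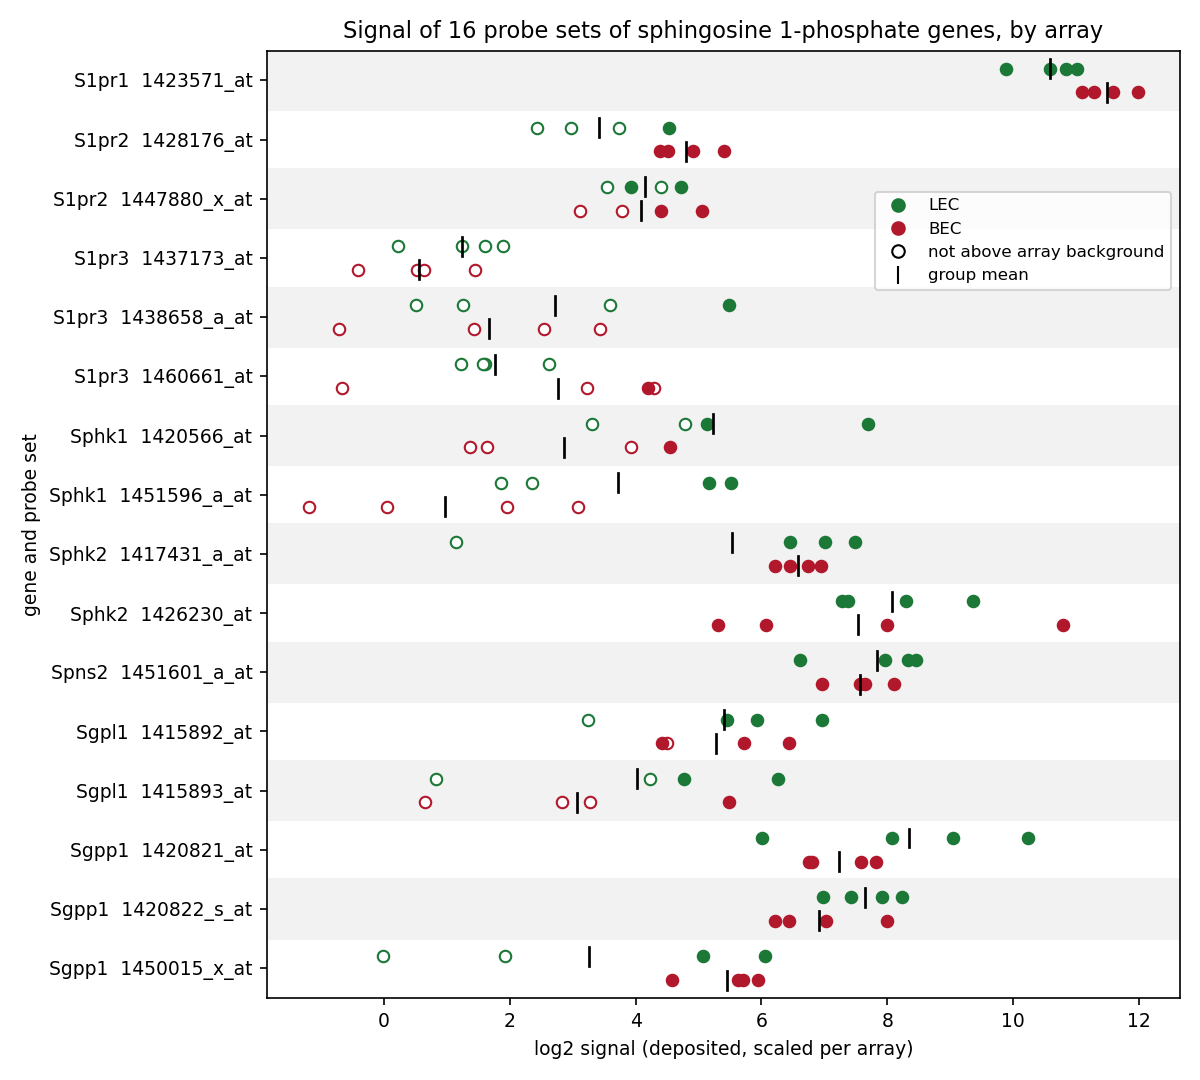
Log2 signal of each of the 16 probe sets (rows) on each array, LEC in green above BEC in red, with open circles for values not above the background of that array and black bars for group means (n = 4). S1pr1, at the top, is bright on all 8 arrays and the 3 probe sets of S1pr3 are mostly open circles.

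S1pr1, the receptor of endothelial barrier function, was bright in both cell types. Its probe set 1423571_at had log2 signals of 10.84, 11.02, 9.88 and 10.59 in LEC of mice 1 to 4, against 11.59, 11.28, 11.09 and 11.99 in BEC. Every BEC array was above every LEC array, but by a narrow margin, since the highest LEC value and the lowest BEC value lay next to each other. Groups did not overlap at 9.22% of all fitted probe sets. LEC averaged 10.58 ± 0.50 and BEC averaged 11.49 ± 0.39 (SD, n = 4 arrays per cell type, as for all group means here), a ratio of 1.88-fold in favour of BEC. The difference of -0.91 ± 0.34 (moderated SE, as for all differences here) had an unadjusted p of 0.0174 and an adjusted p of 0.226 over all probe sets (limma), so it was not called. The unadjusted 95% interval of the LEC to BEC ratio ran from 0.323 to 0.879. An exact two-sided permutation test of this value alone gave p = 0.0286, the smallest that 4 against 4 arrays allow. That test ignores the pairing by mouse, and every probe set whose groups do not overlap reaches the same p. The difference was below 0 in 4 of 4 mice, between -0.27 in mouse 2 and -1.41 in mouse 4. Over 18 other settings of the processing the difference stayed below 0 (-1.30 to -0.67) and was never called (limma, adjusted p from 0.129 to 0.58). The unadjusted p ran from 0.0075 to 0.128 and was under 0.05 in 14 of the 18. The main difference lay within the range of the 7 pan-endothelial markers (-1.28 to -0.35).

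S1pr2, another receptor of this lipid, was close to background. At probe set 1428176_at the signals were 2.43, 4.53, 2.97 and 3.73 in LEC, with 1 array above background, and 5.40, 4.38, 4.51 and 4.91 in BEC, with 4 arrays above background. These counts rest on unequal levels. LEC replicate 4 (3.73) was below its own background of 4.01 but above the 3.43 of BEC replicates 2 to 4. The groups overlapped through LEC of mouse 2, and the difference of -1.39 ± 0.85 was not called (limma, adjusted p = 0.543). With values raised to the background level, which was higher in LEC, the difference shrank to -0.49, or 1.40-fold. The second probe set, 1447880_x_at, had 4.15 ± 0.52 in LEC and 4.09 ± 0.83 in BEC, with 2 arrays of each above background. An "x" in the name marks probes that can also bind other transcripts, and the 2 probe sets of S1pr2 did not show the same difference.

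S1pr3, the third receptor, was not above background on most arrays. None of its 3 probe sets passed the filter, so none was in the main fit. Probe set 1437173_at ranged from 0.22 to 1.89 in LEC and from -0.41 to 1.45 in BEC and was above background on 0 arrays. Probe set 1438658_a_at was above background on LEC replicate 3 alone (5.49, against 0.51 to 3.60 on the other LEC arrays), with -0.72 to 3.44 in BEC. Probe set 1460661_at had 1.23 to 2.63 in LEC and was above background on BEC replicate 4 alone (4.20), although BEC replicate 1 (4.29) was brighter against a higher background. A value below background is not read as absence of the transcript.

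The kinase gene Sphk1 had the largest fitted difference towards LEC among these genes, and most of it came from mouse 4. Probe set 1420566_at gave 4.79, 5.13, 3.31 and 7.69 in LEC, against 3.93, 4.54, 1.64 and 1.36 in BEC. Only LEC replicates 2 and 4 and BEC replicate 2 were above background. LEC of mouse 4 held the highest value and BEC of the same mouse the lowest, and the groups overlapped. The means were 5.23 ± 1.82 in LEC and 2.87 ± 1.60 in BEC, and the difference of 2.36 ± 1.12 was not called (limma, unadjusted p = 0.0541, adjusted p = 0.395). It was above 0 in 4 of 4 mice, at 0.86 in mouse 1, 0.59 in mouse 2, 1.68 in mouse 3 and 6.33 in mouse 4, and it was 1.04 without both arrays of mouse 4 (adjusted p = 0.821). Values raised to background gave a difference of 1.40, 2.65-fold towards LEC. The higher LEC background enters this value, and alone it gives 0.56 where no array is above background. The second probe set, 1451596_a_at, did not pass the filter and gave 2.35, 5.16, 1.86 and 5.51 in LEC and 1.95, 0.05, 3.08 and -1.20 in BEC. There too LEC replicates 2 and 4 were above background, and no BEC array was. The log2 of the summed unlogged signals of 6 fibroblast markers was also highest on LEC replicates 2 and 4 (12.61 and 12.09). This level was 8.35 and 9.09 on LEC replicates 1 and 3 and 7.17 to 8.54 in BEC, and its part in Sphk1 was not tested.

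Sphk2, the kinase gene of the nucleus and mitochondria, was above background in both cell types, but its probe sets gave differences of opposite sign. Probe set 1417431_a_at had 1.15, 7.49, 7.01 and 6.45 in LEC, against 6.74, 6.95, 6.21 and 6.45 in BEC. LEC replicate 1 was far below the other 7 arrays, which lay between 6.21 and 7.49. The difference was -1.06 ± 1.16 (limma, adjusted p = 0.775) and 0.40 without LEC replicate 1 (adjusted p = 0.877). Probe set 1426230_at had 7.28, 7.37, 8.30 and 9.36 in LEC and 6.08, 7.99, 5.31 and 10.79 in BEC, a difference of 0.54 ± 1.00 (adjusted p = 0.887). Mouse 4 gave the highest value of each cell type there.

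Spns2, which encodes the transporter that releases sphingosine 1-phosphate from endothelial cells, was well above background on every array. The signals of 1451601_a_at were 7.96, 8.33, 6.61 and 8.46 in LEC, against 7.64, 8.11, 7.56 and 6.96 in BEC. LEC was higher in mice 1, 2 and 4 and lower in mouse 3, and the groups overlapped throughout. The means of 7.84 ± 0.85 in LEC and 7.57 ± 0.47 in BEC differed by 0.27 ± 0.59 (limma, adjusted p = 0.903). The unadjusted 95% interval of the LEC to BEC ratio ran from 0.504 to 2.90, which includes both a lower and a higher signal in LEC. The difference was -0.14 without both arrays of mouse 4.

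**Figure D2:**
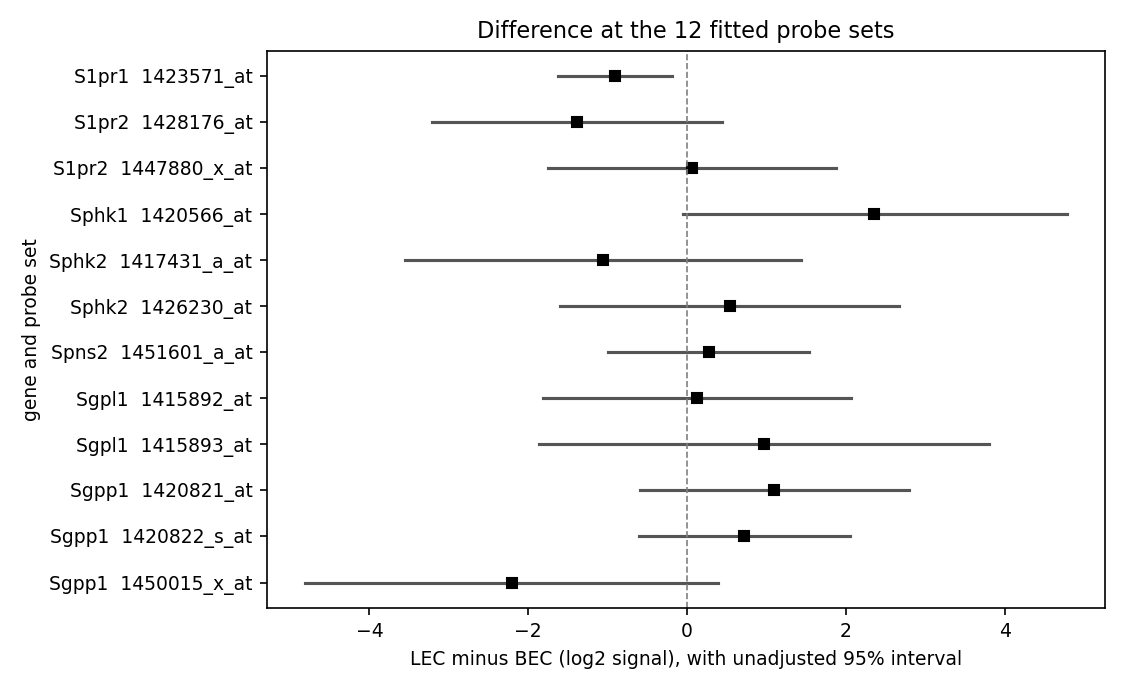
LEC minus BEC on the log2 scale for the 12 fitted probe sets (squares) with their unadjusted 95% intervals (lines). The interval of S1pr1 lies below 0, from -1.63 to -0.19, and the other 11 intervals include 0.

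The lyase gene Sgpl1 had 5.93, 6.96, 5.45 and 3.25 in LEC and 4.50, 6.43, 5.73 and 4.42 in BEC at 1415892_at, a difference of 0.12 ± 0.90 (limma, adjusted p = 0.974). Its other probe set, 1415893_at, had 6.27, 4.23, 4.77 and 0.82 in LEC and 2.83, 3.27, 5.49 and 0.65 in BEC, with 3 of 8 arrays above background and a difference of 0.97 ± 1.32 (adjusted p = 0.832). Leaving out 1 array moved that difference to between 0.16 (without BEC replicate 4) and 2.03 (without LEC replicate 4). Mouse 4 gave the lowest value of each cell type at both probe sets of Sgpl1.

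The phosphatase gene Sgpp1 had 3 probe sets that did not point the same way. At 1420821_at the signals were 8.08, 10.24, 9.05 and 6.01 in LEC and 6.81, 7.82, 6.75 and 7.58 in BEC, a difference of 1.10 ± 0.79 (limma, adjusted p = 0.622). LEC was higher in mice 1 to 3, and mouse 4 alone ran the other way (-1.57). Without both arrays of mouse 4 the difference was 2.00 (unadjusted p = 0.0172, adjusted p = 0.294), and without LEC replicate 2 alone it was 0.47 (unadjusted p = 0.553). At 1420822_s_at, whose "s" marks probes shared between transcripts, the means were 7.64 ± 0.56 in LEC and 6.92 ± 0.79 in BEC, a difference of 0.72 ± 0.61 (adjusted p = 0.695). The third probe set, 1450015_x_at, gave 1.92, 6.05, -0.02 and 5.07 in LEC and 5.70, 5.62, 5.94 and 4.58 in BEC, a difference of -2.21 ± 1.21 (adjusted p = 0.483). LEC replicates 1 and 3 were below background there. Raising values to background, which was higher in LEC, left a difference of -0.51.

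The spread within cell types differed between probe sets. The pooled within-group SD was 0.45 for S1pr1, 0.69 for Spns2 and 0.68 for Sgpp1 at 1420822_s_at, against a median of 1.21 over all fitted probe sets (quartiles 0.83 and 1.70). It was 2.15 for Sgpl1 at 1415893_at, 2.09 for Sphk2 at 1417431_a_at and 2.03 for Sgpp1 at 1450015_x_at, above the upper quartile. Mouse 4 was the only male, so the sex and the animal cannot be told apart for its values at any gene, among them Sphk1, Sphk2, Sgpl1 and Sgpp1.

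**Figure D3:**
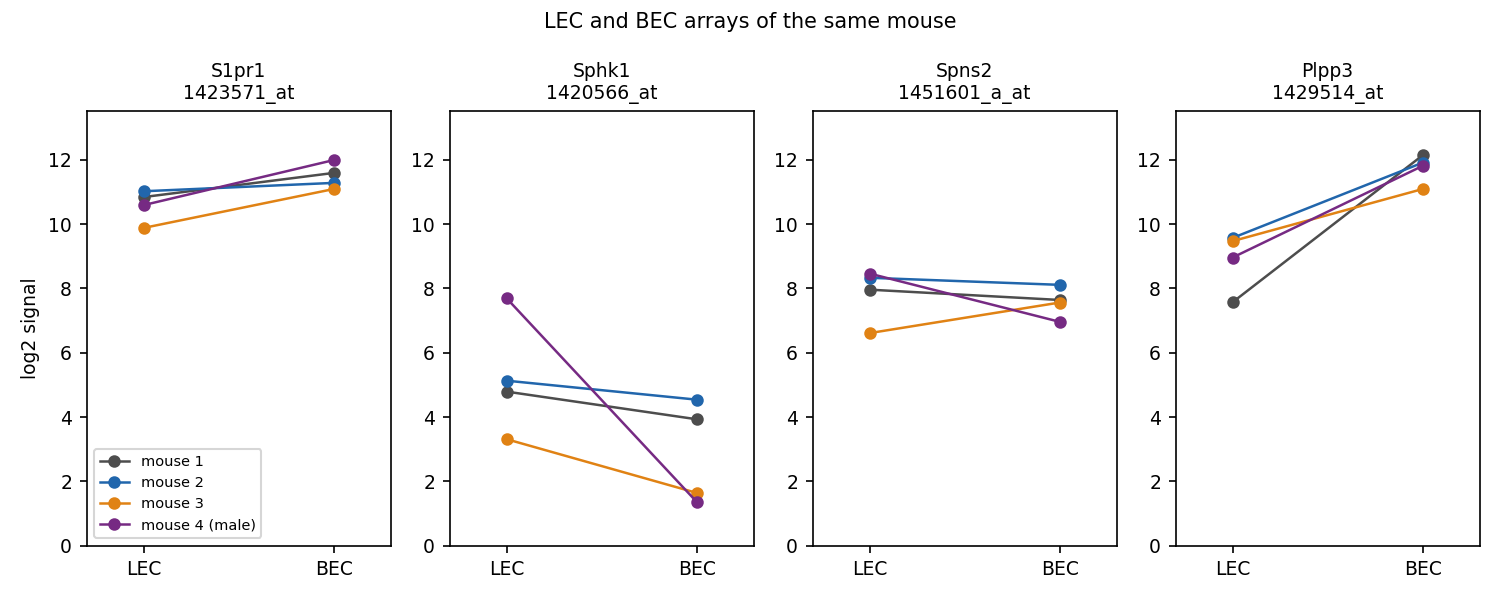
Log2 signal in LEC and BEC of the same mouse (lines, 1 colour per mouse) for S1pr1, Sphk1, Spns2 and Plpp3. The lines of S1pr1 and Plpp3 run to a higher BEC value in all 4 mice, and the steep line of Sphk1 is that of mouse 4.

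The other genes of the pathway were read at the brightest probe set of each gene. Of 65 listed genes, 59 had a named probe set and 51 were fitted, of which 0 were higher and 1 was lower in LEC (limma), where 3.8% of the 13259 genes fitted this way were called, 1.66% higher and 2.14% lower. At an unadjusted p under 0.05 the count was 12 of 51, where 14.1% of those genes passed. The median difference over the 51 was -0.02, against 0.08 over the 13259 genes fitted this way.

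The gene called was Plpp3, which encodes a surface phosphatase of sphingosine 1-phosphate and lysophosphatidic acid. Its signals at 1429514_at were 7.57, 9.57, 9.47 and 8.96 in LEC, against 12.14, 11.91, 11.09 and 11.81 in BEC. All 4 LEC arrays lay below all 4 BEC arrays, with every value above background. Plpp3 was 7.16-fold lower in LEC (difference -2.84 ± 0.46, limma, adjusted p = 0.00247), lower in 4 of 4 mice. A second probe set, 1448908_at, had 7.38 ± 0.70 in LEC and 10.06 ± 0.49 in BEC and was also called (difference -2.68 ± 0.50, adjusted p = 0.00754). Under all 18 other settings Plpp3 was called, with adjusted p-values from 1.21e-04 to 0.0493.

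Among the 11 fitted genes of other receptors, carriers and phosphatases, 1 was called (lower in LEC, limma), where 3.8% of all genes fitted this way were called, and 4 were at an unadjusted p under 0.05, where 14.1% were. The median difference was -0.89 and 10 of the 11 were below 0, beside a median of 0.08 over the 13259 genes fitted this way. Over all 28840 fitted probe sets, several per gene for some genes, the median was 0.11 and 13276 were below 0. Of the bright genes that were not called, Plpp1, a related lipid phosphatase gene, had 10.28 ± 0.68 in LEC and 11.35 ± 0.63 in BEC (adjusted p = 0.253), and Abca1, a lipid exporter gene, had 9.60 ± 0.50 in LEC and 10.15 ± 0.26 in BEC (adjusted p = 0.612). S1pr4, a receptor best known from leukocytes, was chosen for mention after its values were seen. It had 6.73, 5.41, 6.53 and 7.03 in LEC, against 8.63, 8.36, 7.87 and 10.06 in BEC. The groups did not overlap, but the difference of -2.31 ± 0.64 missed the threshold (limma, adjusted p = 0.0716, and 0.0422 to 0.261 over the other settings). The summed level of 8 leukocyte markers ran from 6.62 to 9.64 in LEC and from 6.60 to 8.80 in BEC on the log2 scale, with 3 to 5 of them above background on an array of either cell type and Ptprc above background on 1 LEC and 2 BEC arrays, and its part in S1pr4 was not tested. S1pr5, the remaining receptor gene, did not pass the filter and had 8.29, -0.60, 6.40 and 0.79 in LEC, against 1.53, -0.57, 1.99 and 1.43 in BEC, with 2 LEC arrays and 0 BEC arrays above background.

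Among the genes of ceramide and sphingosine supply, 0 of 24 fitted were called (3.8% over all genes), 6 were at an unadjusted p under 0.05 (14.1% over all genes), 3 of them higher and 3 lower in LEC, and the median difference was 0.17. The desaturase gene Degs1, which acts in ceramide synthesis, had 12.62 ± 0.35 in LEC and 11.83 ± 0.68 in BEC (adjusted p = 0.297). The acid ceramidase gene Asah1, whose product frees sphingosine in lysosomes, had 10.69 ± 0.42 in LEC and 10.13 ± 0.25 in BEC (adjusted p = 0.543). Acer2, the Golgi ceramidase gene, was chosen for mention after its values were seen, since it changed sides of the threshold with the processing. Its signals were 9.46, 7.68, 7.02 and 8.22 in LEC, against 11.50, 10.31, 9.98 and 9.46 in BEC. The groups touched at 9.46, and the difference of -2.22 ± 0.59 was not called (limma, adjusted p = 0.0595). With the mouse as a block the same difference was called (adjusted p = 0.0228), which brought the pathway genes called to 2. Acer2 was called under 6 of the 18 other settings, the block among them (limma, adjusted p from 0.0161 to 0.201). Its other probe set, 1421496_at, had a difference of -0.66 ± 0.48 (adjusted p = 0.631).

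Among the genes of receptor coupling and control, 0 of 16 fitted were called (3.8% over all genes), 2 were at an unadjusted p under 0.05 (14.1% over all genes), and the median difference was 0.17. The GTPase genes Rac1 and Rhoa, which act downstream of the receptors, were bright in both cell types. Rac1 had 11.85 ± 0.26 in LEC and 11.42 ± 0.55 in BEC (adjusted p = 0.615), and Rhoa had 11.48 ± 0.17 in LEC and 11.49 ± 0.25 in BEC (adjusted p = 0.99). Klf2, a flow-responsive transcription factor gene known to act on S1pr1 in T cells, was chosen for mention after its values were seen. It had 7.18, 6.94, 7.57 and 7.51 in LEC, against 9.06, 8.43, 9.37 and 9.65 in BEC, a difference of -1.83 ± 0.49 that missed the threshold (limma, adjusted p = 0.0663, and 0.0448 to 0.28 over the other settings).

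**Figure D4:**
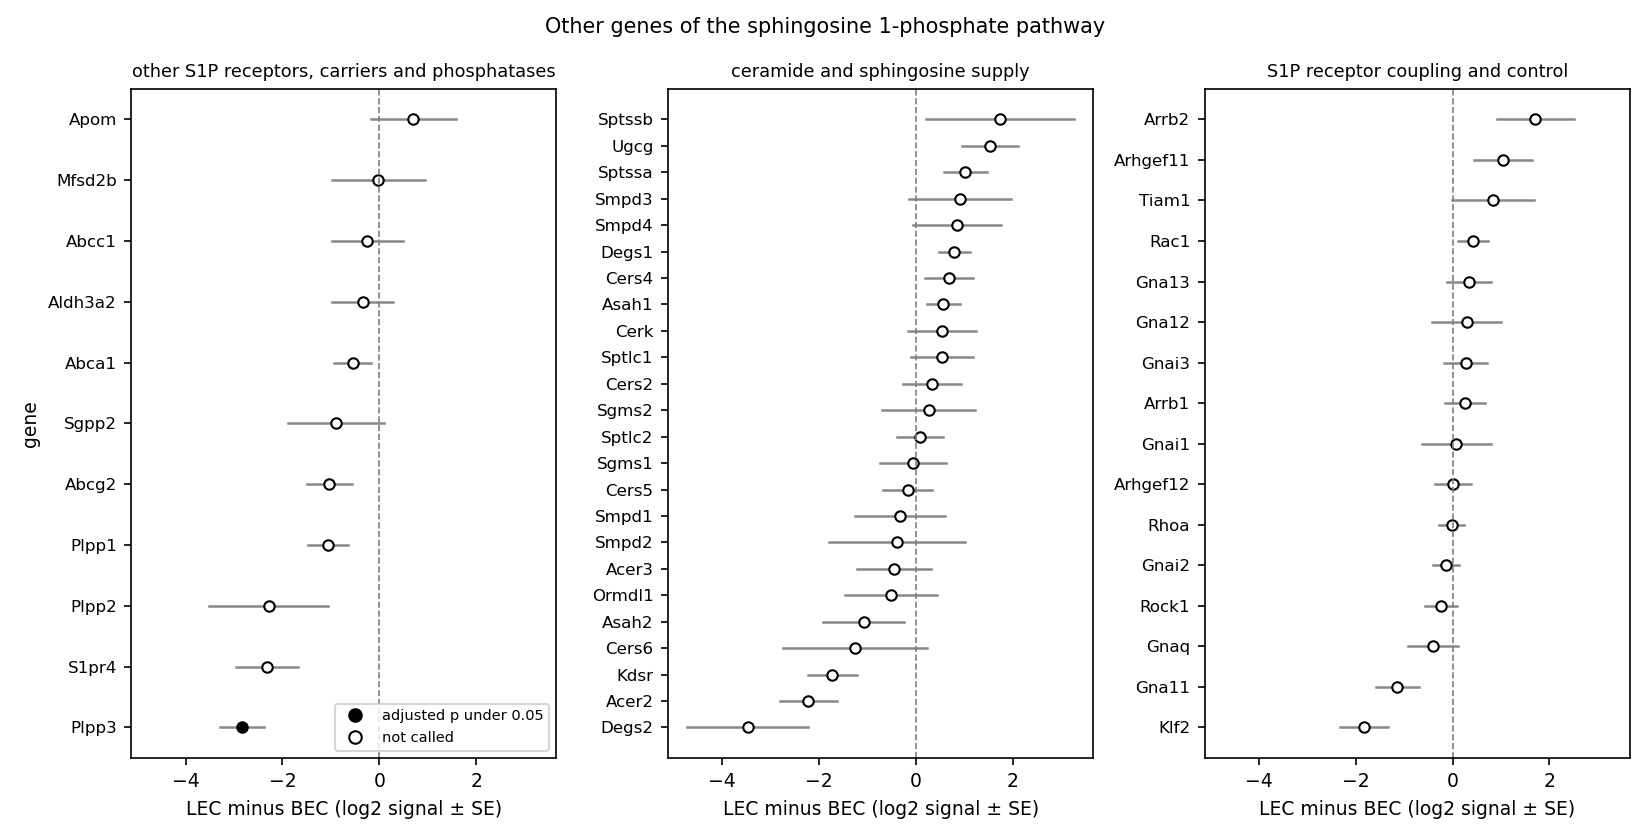
LEC minus BEC on the log2 scale (circles) with the moderated SE (lines) for the 51 fitted genes of the 3 pathway lists, ordered by difference within each list. Plpp3, the filled circle at the bottom left, is the only gene called, and most genes of supply and coupling lie within 1 unit of 0.

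Markers of other cells varied between arrays. The summed level of 6 platelet and red cell markers, cells rich in sphingosine 1-phosphate, ran from 5.52 to 9.12 in LEC and from 4.35 to 6.98 in BEC, with Pf4 above background on 6 of 8 arrays, Gp1bb on 5, Gp9, Ppbp and Alas2 on 2 each and Itga2b on 0. None of the 2 that were fitted, Pf4 and Gp1bb, was called (limma). Pericyte and smooth muscle markers, from cells that express S1pr2 and S1pr3, summed to 8.65 to 10.47 in LEC and 10.09 to 10.76 in BEC. Of the 6 fitted, 1, Rgs5, was called (lower in LEC, difference -6.07). The list did not point 1 way, since 4 of the 6 differences were below 0 and 2 were above 0, Pdgfrb (1.81) and Kcnj8 (1.74). Epithelial markers summed to 8.05 to 13.07 in LEC and 8.93 to 13.71 in BEC. They were high on LEC replicate 3 (13.07) and on BEC replicates 3 and 4 (13.71 and 12.42). The other LEC arrays had 8.05 to 8.75, and BEC replicates 1 and 2 had 8.93 and 8.95. The part of these cells in the signals of the sphingosine 1-phosphate genes was not tested.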

How the data were processed

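The deposited values, 1 column per array, were read as log2 signals. The log2 scale is inferred from the values and every fold given rests on it. The submitters' processing notes name MAS5 (no version given), a method that computes each signal from perfect-match and mismatch probes. Taken as powers of 2, all 8 arrays share a 2% trimmed mean of 100.04, the basis for that reading and for a scaling to 1 common level. No genome build is named, so no coordinates are given.

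The values were used as deposited. Of 45101 probe sets, 64 are controls. Names came from the 2016 platform annotation, updated through gene numbers to RefSeq symbols, and 34945 probe sets had 1 gene. Probe sets above the 40th percentile of their array on at least 4 of 8 arrays entered a linear model of cell type in limma 3.58.1 (R 4.3.3), whose lmFit and eBayes functions were used with a variance trend over mean signal. Two-sided p-values were corrected over all 28840 fitted probe sets with the Benjamini-Hochberg method. On simulated data with the spread of these arrays the fit recovered the size of known differences at the median but missed many of them. It called 0% of log2 differences of 1, 2% of those of 2, 38% of those of 4 and 64% of those of 6. There 50 of 28840 probe sets were changed at each size, and the corrected threshold depends on that number. The changed probe sets were drawn at random from all fitted ones. These rates are thus averages and are not those of a given probe set, such as a bright one with a small spread. The absence of a call therefore does not show that the cell types are alike, even where a difference is large. SDs and p-values cover the spread between animals, amplification and arrays, and the number of arrays limits the precision.

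The mouse pairs the samples, per the series design. Same-mouse deviations from the group means correlated at 0.141, 0.0795, 0.149 and 0.0524 for mice 1 to 4. The highest correlation of each LEC array with BEC of another mouse was lower, at 0.0196, 0.00336, 0.0565 and 0.0172. The alternatives were other scalings and filters, values raised to background, the mouse as a block, no trend, 1 probe set per gene and leaving out arrays.

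The genes and lists were chosen with earlier results of these data known. Beside the 8 genes, the text names each called pathway gene and the 2 brightest not called in each list. Genes most like a called member were to be named, and no member was called.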

Additional observations from a re-analysis of the deposited data

Results flagged for a closer look

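One value stood far from its group among the 32 groups of 4 arrays formed by the 16 probe sets and both cell types. Sphk2 at probe set 1417431_a_at had a log2 signal of 1.15 in LEC replicate 1, against 6.45 to 7.49 on the other LEC arrays, a gap of 0.837 of the range that exceeds the critical value of Dixon's test for 4 samples. Chance gives such a value in about 5% of groups. The other Sphk2 probe set had 7.28 on the same array, and LEC replicate 1 is also the array with the lowest correlation with its group.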

How the results depend on the processing

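No probe set of the 8 genes was called under any of the 18 other settings, 17 planned and 1, leaving out mouse 4, added after seeing the data. For the 12 probe sets of the main fit the lowest adjusted p was 0.129 (limma), and 189 of 207 refitted differences kept their sign. Without the filter all 16 probe sets were fitted. Of these, 0 were called and 2 were at an unadjusted p under 0.05 (limma). The sign of some differences changed as follows, with the cause not tested. With equal array medians S1pr2 1447880_x_at was -0.21, Spns2 -0.0019 and Sgpl1 1415892_at -0.15. With equal hybridisation controls these were -0.33, -0.11 and -0.26. Quantile normalization gave -0.17 for S1pr2 1447880_x_at, and leaving out mouse 4 gave -0.14 for Spns2. Leaving out 1 array at a time gave -0.26 to 0.39 for S1pr2 1447880_x_at, -1.71 to 0.40 for Sphk2 1417431_a_at and -0.21 to 1.62 for Sphk2 1426230_at. It gave -0.40 to 0.84 for Sgpl1 1415892_at and -0.14 to 0.05 for Rhoa. Other differences moved without a change of sign when 1 array was left out. They were 0.16 to 2.03 for Sgpl1 1415893_at, 0.47 to 1.88 for Sgpp1 1420821_at and 0.07 to 0.68 for Spns2.

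Over all probe sets 954 were called (424 higher and 530 lower in LEC), 540 with 1 probe set per gene and 458 without mouse 4 (fewer features or arrays), and 650 to 951 without 1 array. The split was 316 and 587 with equal array medians and 231 and 506 with equal hybridisation controls, which moved the median difference of all probe sets to -0.17 and -0.28. Of the pathway genes 2 were called with equal array medians, with equal hybridisation controls and with the replicate block, 3 with the stricter filter and with values raised to background, and 1 to 3 without 1 array. Plpp3 was among them each time. The others were Acer2, under 6 of the 18 settings, and 4 genes under 1 setting each. These were Klf2, S1pr4, Sptssa (without LEC replicate 1) and Degs2 (without LEC replicate 3). Beside Acer2, the block changed no call among the probe sets of the 8 genes and the 7 pathway genes named by rule. Its effect on the marker calls and on Plpp3 1448908_at was not tabulated. Signal over background limits the S1pr3 probe sets, none of which was in the main fit, and Sphk1, above background on 3 of 8 arrays at its probe set in that fit.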
